A study of Mus musculus with 5 samples.

Results

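The genes described here are those of respiratory complex I, taken as every gene symbol that starts with Nduf and is named alone by a probe of the array. They numbered 42 of 22180 symbols: 32 encode subunits of complex I, 8 encode assembly factors (symbols starting with Ndufaf), and 2, Ndufa4 and Ndufa4l2, carry the name without being counted as complex I subunits. For a symbol with more than 1 probe, the probe of highest mean over the arrays was used. The subunit genes Ndufs6, Ndufb1, Ndufb2 and Ndufb4, and the mitochondrially encoded subunits, had no probe that met this rule and were not analysed here. Of the 42, 41 passed the filter on low values, which was the 40th percentile of all probes. Ndufs5 did not, with values between 2.92 and 3.16 on the log2 scale in the 5 hearts.

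Complex I, the NADH:ubiquinone oxidoreductase of the inner mitochondrial membrane, takes electrons from NADH in its matrix arm, passes them along iron-sulfur clusters to ubiquinone, and pumps protons through its membrane arm. Core subunits carry out the chemistry, accessory subunits surround and stabilise them, and assembly factors help to build the complex without remaining in it. Heart muscle is rich in mitochondria, and in ischemia and reperfusion complex I is known both as an early site of damage and as a source of superoxide when electrons flow backwards from ubiquinol at the return of oxygen.

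The treated group (n = 3 hearts) came from wild-type C57Bl6J mice that received a REV-ERB alpha antagonist intraperitoneally, 4 h and 1 h before perfusion and at 10 µM as the labels state it. The sham group (n = 2 hearts) came from wild-type C57Bl6J mice without the antagonist. REV-ERB alpha is a nuclear receptor of the circadian clock that represses transcription. All hearts were taken at zeitgeber time 12 (hours from lights on), perfused on a Langendorff apparatus, left for 20 min without flow and reperfused for 20 min before freezing. Hearts spared ischemia were not analysed here, so all values describe reperfused tissue, and the labels name neither the compound nor a vehicle.

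Each array gave log2 values for 41345 probes, its median lying at 3.92 to 3.95, and with 5 arrays the precision of each difference is low. The tissue label was borne out by 14 ventricular muscle markers, whose values ran from 8.17 to 12.7. Antagonist replicate 2 carried more of other tissues. All 8 atrial markers were measured, and their log2 values summed to 73.8 on that array. They summed to 54.0 and 57.3 on the other antagonist arrays, and to 53.4 and 55.7 on the sham arrays. Of these markers 7 were highest on antagonist replicate 2, and Myl4 was not. For 6 fat cell markers the sums were 39.4 on antagonist replicate 2, 29.8 and 31.3 on the other antagonist arrays, and 29.8 and 30.2 on the sham arrays. Of the 5 that passed the level filter, Retn, Cidec and Plin1 were highest on antagonist replicate 2, and Lep and Fabp4 were not. For 7 brown fat markers the sums were 53.49 on antagonist replicate 2, 49.46 and 49.76 on the other antagonist arrays, and 49.53 and 50.01 on the sham arrays. Of the 6 that passed the level filter, Ucp1, Cidea and Dio2 were highest on antagonist replicate 2 and Cox7a1, Cox8b and Ppargc1a were not. Ucp1 stood at 6.49 there and at no more than 3.47 elsewhere. All 5 mesothelial markers were also highest on antagonist replicate 2. The part of these tissues in the values below was not tested, and the medians without that array are given after the comparisons. In bulk tissue, fewer cells of a type and less RNA per cell cannot be told apart.

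Promoter sequence was examined because the antagonist acts on a DNA-binding repressor and because nuclear genes of the respiratory chain are known to share regulators. RefSeq windows of 250 bases before the transcription start (build GRCm38.p6) were available for 37 of the genes. The element bound by REV-ERB and ROR receptors, searched like all motifs here on both strands, was found in 0 of the 37 and in 0.722% of 27025 genes. Its core, the nuclear receptor motif AGGTCA, which lies within that element, was found in 3 of the 37 (8.11%), against 15.8% of all genes. The NRF1 element, named for nuclear respiratory factor 1, was found in 5 of the 37 (13.5%), against 4.23% of all genes. The ETS element bound by GABPA, searched as CCGGAAG, was found in 5 of the 37 (13.5%), against 7.83% of all genes. The ERR element TCAAGGTCA, which contains AGGTCA, and the YY1 element AAGATGGCG were found in 0 of the 37, against 0.422% and 0.710% of all genes. A match is a description of the letters and not a binding site, and the windows of different genes differ in base composition. Examples of each motif follow, with the match in capitals: the subunit gene with the smallest p in the comparison below, a core subunit gene with an ETS element, and a core subunit gene with the nuclear receptor motif.
Ndufa11 (chr17:56717512-56717761, plus strand, NRF1 element starting 60 bases before the start): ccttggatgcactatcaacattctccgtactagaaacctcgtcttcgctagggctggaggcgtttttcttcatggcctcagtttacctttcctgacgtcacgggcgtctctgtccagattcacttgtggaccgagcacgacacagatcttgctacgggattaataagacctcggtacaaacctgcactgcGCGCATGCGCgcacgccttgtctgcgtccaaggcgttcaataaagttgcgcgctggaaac
Ndufs3 (chr2:90904722-90904971, minus strand, ETS element starting 27 bases before the start): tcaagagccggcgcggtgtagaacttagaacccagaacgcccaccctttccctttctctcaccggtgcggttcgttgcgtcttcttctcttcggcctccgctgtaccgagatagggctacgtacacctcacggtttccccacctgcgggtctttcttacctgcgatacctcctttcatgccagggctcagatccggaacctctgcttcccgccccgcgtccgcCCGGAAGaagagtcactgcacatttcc
Ndufs8 (chr19:3912775-3913024, minus strand, AGGTCA starting 224 bases before the start): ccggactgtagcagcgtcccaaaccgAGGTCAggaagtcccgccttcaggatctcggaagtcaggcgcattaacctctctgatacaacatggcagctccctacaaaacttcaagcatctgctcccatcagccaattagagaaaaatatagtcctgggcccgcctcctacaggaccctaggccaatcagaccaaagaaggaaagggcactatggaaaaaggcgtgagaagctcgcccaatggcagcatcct

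The question put to the antagonist and sham hearts was whether blocking REV-ERB alpha before ischemia and reperfusion went with a difference in complex I transcripts. No Nduf gene passed the test over all genes: with limma, 0 of 41 had an adjusted p under 0.05, as did 0 of the 15294 genes tested (0.0%). The 31 tested subunit genes went both ways: 17 were higher with the antagonist and 14 lower, at a median log2 difference of 0.0071 and a range from -0.20 to 0.17. Over all genes tested, 47.7% were higher and 46.3% lower, with a median of 0. The 8 assembly factor genes were 3 higher, 4 lower and 1 equal, with a median of -0.0018. At an unadjusted p under 0.05 there were 2 of the 41 Nduf genes, Ndufa4l2 and Ndufa11, both lower, against 4.60% of all genes tested (704 genes).

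The groups did not overlap for 4 of the 41 genes. These were Ndufa4l2, Ndufa11, Ndufa7 and Ndufaf2, all 4 lower in the antagonist hearts, where 6.33% of all genes tested were lower without overlap. None of the 41 was higher without overlap, against 6.19% of all genes tested. A difference of less than 0.1 on the log2 scale was found for 20 of the 31 subunit genes and for 9391 of the 15294 genes tested.

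For 24 of the 31 subunit genes the gap between the sham arrays was larger than the difference between the groups, and this held for 58.4% of all genes tested. Sham replicate 1 was lower than every antagonist array for 16 of the 31 subunits (51.6%) and higher than every antagonist array for 8 (25.8%). Over all genes tested these shares were 28.1% and 24.6%. Sham replicate 2 was lower than every antagonist array for 2 subunits, Ndufb3 and Ndufb9, higher for 10, and within their range for 19 (61.3%). Over all genes tested the shares were 19.6% below, 22.5% above and 57.9% within. The median SD within a group was 0.05 between antagonist hearts and 0.11 between sham hearts over these 31 genes, and 0.06 and 0.08 over all genes tested.

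**Figure D1:**
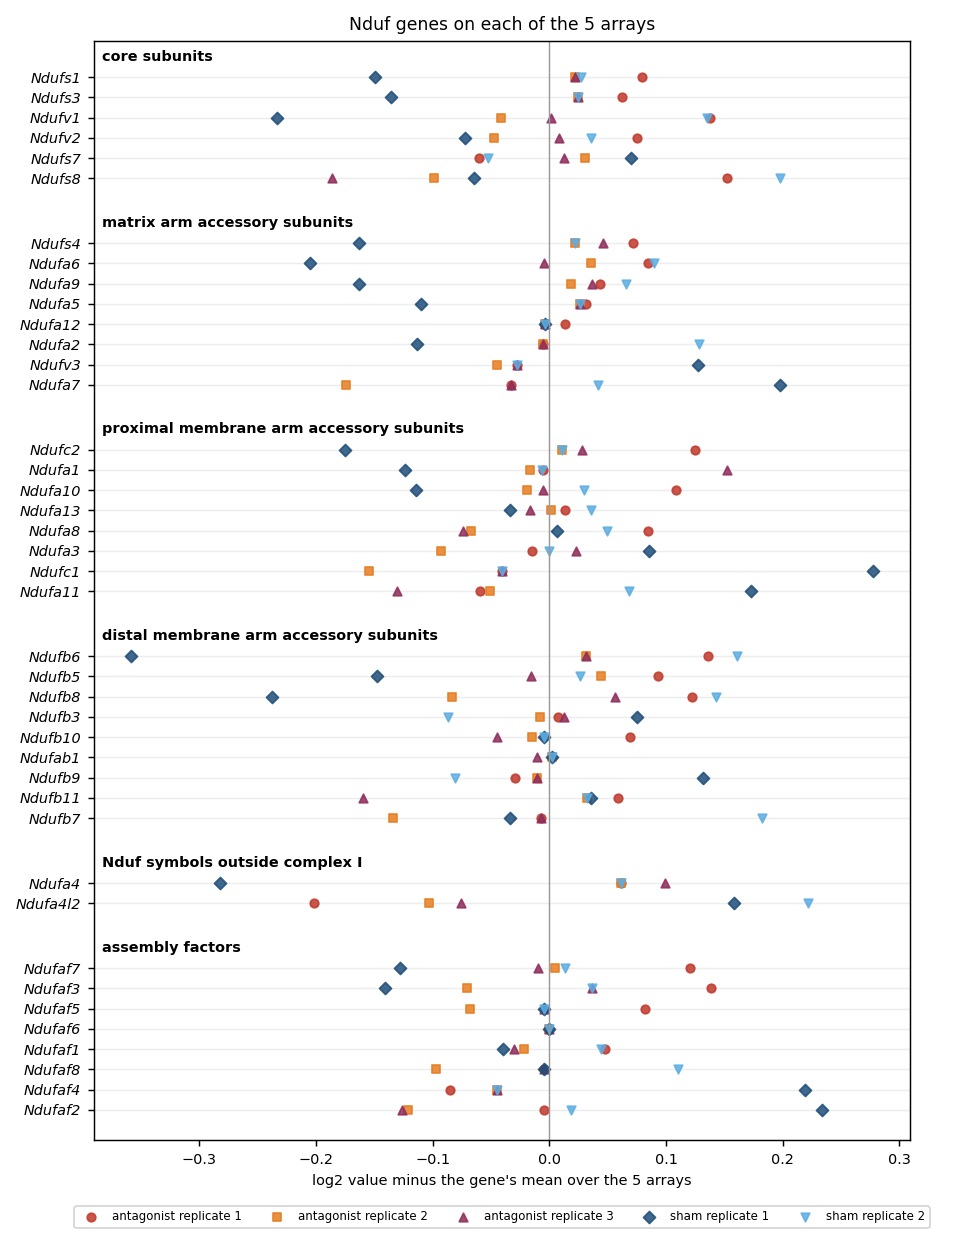
Log2 values of the 41 tested Nduf genes on each array, each gene centred on its mean over the 5 arrays and sorted within its role by the difference between groups; points are single hearts. Sham replicate 1 (dark diamonds) lies at the far left for genes such as Ndufb6, Ndufb8 and Ndufv1 and at the far right for Ndufc1, Ndufaf2 and Ndufa7.

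For many subunit genes the direction depended on which sham heart was kept. Without sham replicate 1 the 31 subunit genes were 12 higher and 19 lower, with a median of -0.02, against 43.9% higher over all genes tested. Without sham replicate 2 they were 19 higher and 12 lower, with a median of 0.03, against 47.1% higher over all genes tested. For 13 of the 31 (41.9%) the sign differed between these comparisons, against 23.8% of all genes tested. A further 9 were higher with either sham array alone, and 9 were lower. Only Ndufa11 and Ndufa7 among the subunits kept a difference of at least 0.1 in size in 1 direction against either sham array, as Ndufa4l2 and Ndufaf2 did outside the subunits. All 4 were lower; for 6.19% of all genes tested the antagonist mean was lower in this way. With a single sham array the spread comes from the antagonist arrays alone, the lone sham heart being taken to vary as they do. In that fit limma called 1 subunit gene, Ndufa2, lower without sham replicate 1, against 8.62% of all genes tested. Without sham replicate 2 it called Ndufa2, Ndufa5 and Ndufa9, all higher, and Ndufb9 and Ndufv3, both lower, against 13.5% of all genes tested. For 4 of those 5 some of the values on antagonist arrays were exactly equal, as summaries over few arrays can be, and 16 of the 31 subunit genes repeated at least 1 value across arrays, as did 11303 of the 15294 genes tested. Ndufa2, a small accessory subunit of the matrix arm, shows what such a call rests on. It read 8.78 on each of the 3 antagonist arrays, 8.67 on sham replicate 1 and 8.91 on sham replicate 2.

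**Figure D2:**
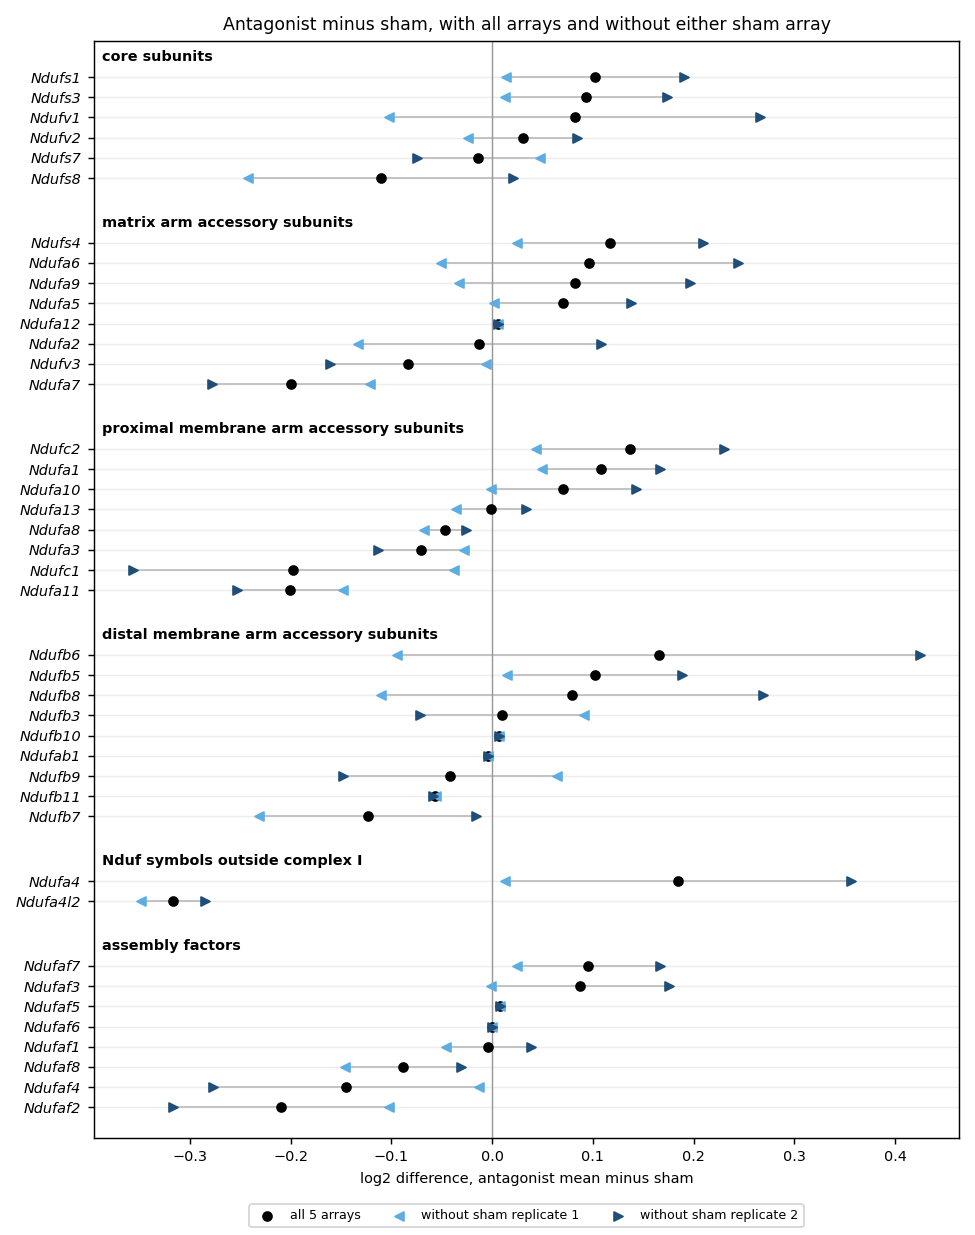
Log2 difference, antagonist mean minus sham, for the 41 tested Nduf genes with all arrays (black circles), without sham replicate 1 (light triangles) and without sham replicate 2 (dark triangles). Lines that cross 0, as for Ndufb6 (-0.09 to 0.42) and Ndufv1 (-0.10 to 0.27), mark genes whose direction depends on the sham heart, and Ndufa4l2, Ndufa11, Ndufa7 and Ndufaf2 stay at or below -0.10.

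Core subunits came first by role. Ndufv1, which binds NADH and the flavin where electrons enter, read 10.05, 9.87 and 9.92 on antagonist replicates 1 to 3, against 9.68 and 10.05 on sham replicates 1 and 2. Sham replicate 2 and antagonist replicate 1 were alike at the top and sham replicate 1 was lowest, so the groups overlapped, with a log2 difference of 0.08 ± 0.14 (limma SE). Its partner Ndufv2, which holds an iron-sulfur cluster, read 11.03, 10.91 and 10.96 with the antagonist, against 10.88 and 10.99 in sham. Ndufs1, the large subunit that carries several iron-sulfur clusters, read 10.83, 10.77 and 10.77 with the antagonist, against 10.60 and 10.77 in sham. Here sham replicate 1 alone lay apart, and sham replicate 2 lay within the antagonist values. The difference of 0.10 ± 0.06 (SE) became 0.01 without sham replicate 1.

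Ndufs3, a core subunit next to the ubiquinone site, had the same pattern at 6.12, 6.08 and 6.08 with the antagonist, against 5.92 and 6.08 in sham. Ndufs7, which holds the last iron-sulfur cluster before ubiquinone, read 11.48, 11.57 and 11.55 with the antagonist, against 11.61 and 11.48 in sham, a difference of -0.01 ± 0.05 (SE). In this gene sham replicate 1 was the highest array, opposite to its place in Ndufv1, Ndufs1 and Ndufs3. Ndufs8, a further iron-sulfur subunit, read 10.14, 9.89 and 9.80 with the antagonist, against 9.92 and 10.18 in sham. Its antagonist hearts spanned most of the range of the 5 arrays, and its difference of -0.11 ± 0.15 (SE) was -0.24 without sham replicate 1 and 0.02 without sham replicate 2. Of the 6 core genes, 4 were higher and 2 lower, with a median of 0.06 that was -0.0056 without sham replicate 1.

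Accessory subunits of the matrix arm gave 5 higher and 3 lower of 8, with a median of 0.04. Ndufs4, whose loss in mice gives a model of Leigh syndrome, read 9.43, 9.38 and 9.40 with the antagonist, against 9.19 and 9.38 in sham. Its difference was 0.12 ± 0.07 (SE) and 0.02 without sham replicate 1, because sham replicate 2 equalled antagonist replicate 2. Ndufa6, which binds the mitochondrial acyl carrier protein, read 10.10, 10.05 and 10.01 with the antagonist, against 9.81 and 10.10 in sham.

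Every antagonist heart lay below both sham hearts for Ndufa7. Its values were 7.20, 7.06 and 7.20 with the antagonist, against 7.44 and 7.28 in sham, so that antagonist replicate 2 was lowest and the nearest arrays of the 2 groups were 7.20 and 7.28. The antagonist hearts averaged 7.16 ± 0.08 (SD, n = 3), against 7.36 ± 0.11 (SD, n = 2) for the sham hearts. With limma the difference of -0.20 ± 0.08 (SE), or 0.871-fold, had an unadjusted p of 0.065 and an adjusted p of 0.64. Ndufv3, a small subunit next to Ndufv1, read 6.71, 6.69 and 6.71 with the antagonist, against 6.86 and 6.71 in sham. Sham replicate 1 alone was high for it. The remaining matrix arm genes Ndufa2, Ndufa5, Ndufa9 and Ndufa12 differed by -0.01 to 0.08.

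Among the accessory subunits of the membrane arm nearest the matrix arm, 3 of 8 tested were higher and 5 lower, with a median of -0.02. Ndufa11 (Entrez Gene 69875), a membrane subunit that stabilises the arm, was the subunit gene of smallest p. It read 9.88, 9.89 and 9.81 on the antagonist arrays, against 10.11 and 10.01 on the sham arrays. All antagonist hearts lay below both sham hearts, and the groups were further apart than either spread: a mean of 9.86 ± 0.04 (SD, n = 3) in antagonist hearts against 10.06 ± 0.07 (SD, n = 2) in sham hearts. The log2 difference of -0.20 ± 0.05 (SE), or 0.870-fold, had an unadjusted limma p of 0.015 and an adjusted p of 0.64 over all genes. An exact permutation test (two-sided, all 10 ways to divide the arrays) gave p = 0.10, the smallest this design allows. A dimmer probe of Ndufa11 went the other way, with 5.08, 5.04 and 5.03 on the antagonist arrays, against 4.93 and 5.04 on the sham arrays, a difference of 0.06. The lower value of Ndufa11 thus held for 1 of its 2 probes.

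Ndufc1, a small membrane subunit, read 9.12, 9.01 and 9.12 with the antagonist, against 9.44 and 9.12 in sham. Sham replicate 1 stood 0.32 above sham replicate 2, which equalled antagonist replicates 1 and 3, and the difference of -0.20 ± 0.12 (SE) was -0.04 without sham replicate 1. Its neighbour in the complex, Ndufc2, had the opposite sign: it read 10.18, 10.06 and 10.08 with the antagonist, against 9.87 and 10.06 in sham. Ndufa1, encoded on the X chromosome, read 9.26, 9.25 and 9.42 with the antagonist, against 9.14 and 9.26 in sham. Both of these had sham replicate 1 as the lowest array and differed by 0.14 ± 0.08 and 0.11 ± 0.08 (SE). The other 4 tested genes of this region, Ndufa3, Ndufa8, Ndufa10 and Ndufa13 (also known as GRIM-19), differed by -0.07 to 0.07. A dimmer probe of Ndufa8 gave 0.07 where the brighter one gave -0.05.

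In the far part of the membrane arm, 5 of 9 genes were higher and 4 lower, with a median of 0.0071, and no gene had groups apart. Ndufb6 read 8.72, 8.62 and 8.62 with the antagonist, against 8.23 and 8.75 in sham. Its sham hearts bracketed the antagonist hearts and lay 0.52 apart, the widest sham gap of the 41 genes, beside a difference of 0.17 ± 0.18 (SE). Ndufb5 read 9.52, 9.48 and 9.42 with the antagonist, against 9.28 and 9.46 in sham, with a difference of 0.10 ± 0.07 (SE).

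Ndufb7, a subunit of the intermembrane space side, read 8.04, 7.91 and 8.04 with the antagonist, against 8.01 and 8.23 in sham. Here sham replicate 2 was the high array, and the difference of -0.12 ± 0.09 (SE) was -0.02 without it. Ndufb11, also X-linked, read 4.95, 4.93 and 4.74 with the antagonist, against 4.93 and 4.93 in sham, so that antagonist replicate 3 alone set its difference of -0.06 ± 0.08 (SE). Ndufb9, which like Ndufa6 binds the acyl carrier protein, read 12.048, 12.067 and 12.067 with the antagonist, against 12.209 and 11.997 in sham. Ndufab1, the acyl carrier protein itself, read 6.70, 6.70 and 6.68 with the antagonist and 6.70 on both sham arrays. The other 3 genes, Ndufb3, Ndufb8 and Ndufb10, differed by 0.01 to 0.08.

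The pair of Nduf genes outside complex I had opposite signs. Ndufa4l2 (Entrez Gene 407790), a gene induced by hypoxia through HIF1 and reported to lower complex I activity, had the largest difference and the smallest p of the 41 genes. It read 5.37, 5.47 and 5.49 on the antagonist arrays, against 5.73 and 5.79 on the sham arrays. All 3 antagonist hearts lay below both sham hearts, the antagonist hearts averaging 5.44 ± 0.07 (SD, n = 3), against 5.76 ± 0.05 (SD, n = 2) for the sham hearts. The difference of -0.32 ± 0.05 (SE), or 0.803-fold, had an unadjusted limma p of 0.0043 and an adjusted p of 0.64. It lay between -0.35 and -0.28 when any 1 array was left out. The exact two-sided permutation p was 0.10, again the smallest possible.

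Ndufa4, a paralogue named as a complex I subunit and now counted with complex IV, read 11.52, 11.52 and 11.55 with the antagonist, against 11.17 and 11.52 in sham. Its difference of 0.18 ± 0.12 (SE) was 0.01 without sham replicate 1 and 0.36 without sham replicate 2. Thus the low value of sham replicate 1 alone separated the group means.

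**Figure D3:**
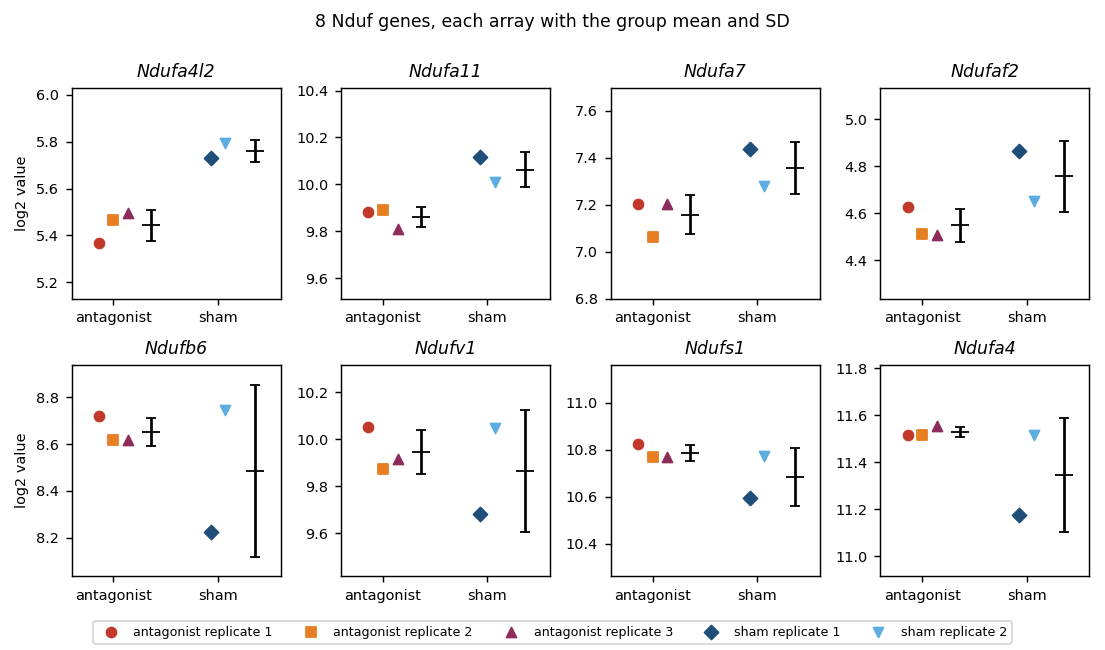
Log2 values of 8 Nduf genes in antagonist hearts (left, n = 3) and sham hearts (right, n = 2); points are hearts, and black bars give the mean with SD. In the upper row the antagonist hearts lie below both sham hearts, and in the lower row sham replicate 2 lies among or above the antagonist hearts while sham replicate 1 lies below them; every panel spans the same log2 range.

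Assembly factors follow. Ndufaf2, a relative of the subunit Ndufa12 that takes its place during assembly, read 4.63, 4.51 and 4.51 with the antagonist, against 4.87 and 4.65 in sham. The groups were apart, but the nearest arrays were 4.63 and 4.65, closer than the sham hearts were to each other. Its difference of -0.21 ± 0.09 (SE), or 0.865-fold, had an unadjusted limma p of 0.078 and an adjusted p of 0.64, and was -0.10 without sham replicate 1. Ndufaf4, which acts with Ndufaf3 early in assembly, read 7.86, 7.90 and 7.90 with the antagonist, against 8.16 and 7.90 in sham. Its difference of -0.15 ± 0.09 (SE) was -0.01 without sham replicate 1 and -0.28 without sham replicate 2.

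Ndufaf3 itself read 7.29, 7.08 and 7.19 with the antagonist, against 7.01 and 7.19 in sham, and so had the opposite sign to its partner, at 0.09 ± 0.09 (SE). Ndufaf7, a mitochondrial methyltransferase, read 7.55, 7.43 and 7.42 with the antagonist, against 7.30 and 7.44 in sham, a difference of 0.10 ± 0.07 (SE). Ndufaf1, Ndufaf5 and Ndufaf8 differed by -0.09 to 0.01, and Ndufaf6 had the same value, 5.53, on every array. Of 10 further assembly factor genes outside the Nduf naming, 7 were higher and 3 lower, with a median of 0.04 and -0.0076 without sham replicate 1, and 0 had an unadjusted p under 0.05. The 3 of smallest p were Timmdc1 (0.21 ± 0.12, SE), Acad9 (0.19 ± 0.11) and Tmem70 (0.15 ± 0.12), and sham replicate 1 was the lowest array for each.

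Of 10 regulators of mitochondrial genes, 0 passed the test, 7 were higher and 3 lower, with a median of 0.03. Only Ppara had its groups apart, against 12.5% of all genes tested in either direction. Ppargc1b, a coactivator of mitochondrial biogenesis, read 6.76, 6.67 and 6.65 with the antagonist, against 6.76 and 6.92 in sham. Ppara, the receptor that drives fatty acid oxidation genes, read 6.73, 6.58 and 6.58 with the antagonist, against 6.01 and 6.57 in sham. Perm1, a muscle regulator of oxidative genes, read 9.01, 9.00 and 9.19 with the antagonist, against 8.45 and 9.01 in sham. For Ppara and Perm1 sham replicate 1 was far below the other 4 arrays, and differences of 0.34 and 0.34 became 0.06 and 0.06 without it. Limma's adjusted p was 0.64 for all 3.

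The genes of the other respiratory complexes give a comparison on the same arrays. For 41 tested genes of complexes II to V the median difference was 0.03, with 27 higher and 14 lower. It was -0.03 without sham replicate 1, with 14 higher and 27 lower, and 0.14 without sham replicate 2, with 28 higher and 12 lower. Centred on each gene's mean, the complex I subunits had a median of 0.04, -0.0082 and -0.0049 on the antagonist arrays, -0.06 on sham replicate 1 and 0.03 on sham replicate 2. The genes of complexes II to V had 0.05, -0.0013 and 0.01 on the antagonist arrays, -0.10 on sham replicate 1 and 0.04 on sham replicate 2. For 14 ventricular muscle markers the values were 0.01, -0.02, 0.01, -0.03 and 0.01 in the same order, and for all genes tested they were 0. Sham replicate 1 thus had the lowest median for both respiratory groups and, by less, for the muscle markers. This did not hold for complex IV, whose 14 genes had medians of 0.0027, -0.0043 and -0.0016 on the antagonist arrays, 0.02 on sham replicate 1 and 0.04 on sham replicate 2. Within complex I it held for the core (-0.10) and matrix arm accessory subunits (-0.11) only. The nearer membrane arm subunits had -0.01 on sham replicate 1 and -0.03 on antagonist replicate 2. The farther ones had -0.0043 on sham replicate 1 and -0.01 on antagonist replicate 3. For the Ndufaf genes antagonist replicate 2 was lowest, at -0.06. Whether a lower share of muscle RNA has a part in the low medians of sham replicate 1 was not tested. Of 7 fibroblast markers, 5 were highest on sham replicate 2, and Dcn and Pdgfra were not. Their log2 values summed to 55.1 on sham replicate 2 and 53.1 on sham replicate 1. On antagonist replicates 1 to 3 the sums were 52.8, 53.5 and 52.4. The part of these cells in the gap between the sham arrays was not tested either. The median over the complex I subunits was 0.02 without antagonist replicate 2, the array with atrial and fat markers, against 0.0071 with it. Without that array the median was 0.08 for the core subunits, 0.04 for the matrix arm accessory subunits, -0.01 for the nearer and 0.02 for the farther accessory subunits of the membrane arm. It was 0.0032 for the Ndufaf genes, 0.09 for the other assembly factors, 0.03 for the regulators and 0.04 for complexes II to V. None of the 31 tested subunit genes had its sole highest value on that array.

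**Figure D4:**
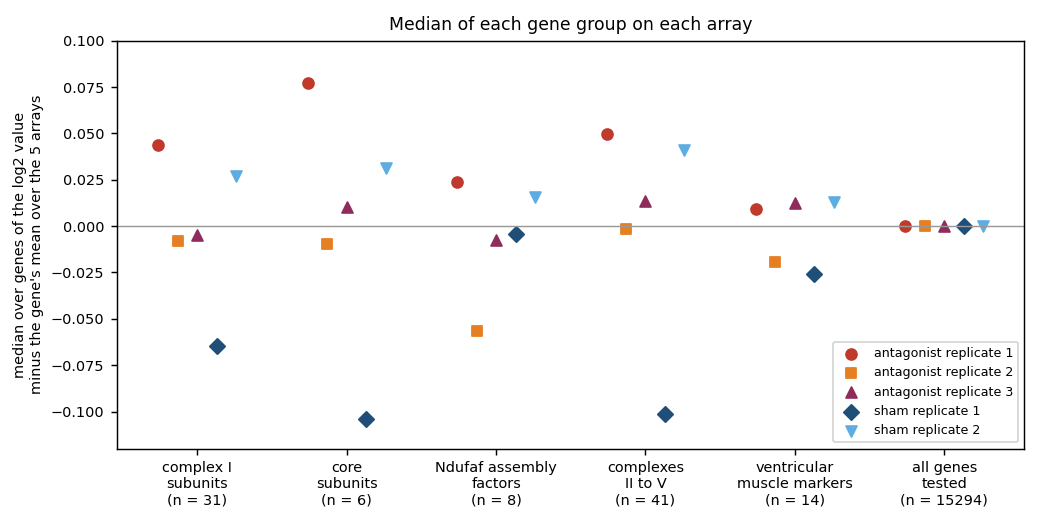
Median over genes of the log2 value centred on each gene's mean, for 6 gene groups (horizontal axis, number of genes in parentheses) on each of the 5 arrays. Sham replicate 1 lies at -0.06 for the complex I subunits and -0.10 for complexes II to V, sham replicate 2 lies above all arrays except antagonist replicate 1 in both, and all genes tested lie at 0.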

How the data were processed

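Total RNA of 5 mouse hearts was hybridised to Affymetrix whole-transcript arrays, from 300 ng of RNA per the labels' protocols. The deposited log2 values were made by the authors with RMA (background correction, quantile normalization and summary per probe set), per the submitters' processing notes (neither a version nor an array library or build is named there). RMA sets the distributions of the arrays equal, so a shift of all genes would not be seen.

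Probes were named from the platform annotation: 23521 had 1 symbol, 1814 had several and were left out, and 16010 were unlisted. All 42 Nduf symbols were found in a RefSeq table by Entrez Gene identifier and 0 names changed. The 15294 genes at or above the 40th percentile of probe means (3.42) entered limma (version 3.58.1, R 4.3.3; a two-sided test by lmFit then eBayes without covariates, Benjamini-Hochberg over all 15294). Limma's prior degrees of freedom were 0.69 beside 3 residual ones. Differences are antagonist minus sham. The scripts were tested on simulated data.

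The members, their roles and all lists were chosen with earlier results of these data known, so lists are given by counts and medians, with no list test. Members named with all values are the core subunits, Ndufa4 and Ndufa4l2, up to 2 per direction and role with the largest difference, those with unadjusted p under 0.05, and those of lowest and highest mean; Ndufa2 and Ndufab1 were added after their values were seen. Of the other assembly factors and the regulators the 3 genes of smallest p are named; complexes II to V are given by counts and medians. Each array is described as a biological replicate.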

Additional observations from a re-analysis of the deposited data

Results flagged for a closer look

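Probes that name an Nduf gene together with another gene were outside the comparisons. Of 6 such probes, 1 had every antagonist heart above both sham hearts, where 6.19% of all genes tested were higher without overlap. It was the brighter probe shared by the symbols Ndufs6 and Ndufs6b. This probe read 10.86, 10.81 and 10.82 with the antagonist, against 10.55 and 10.78 in sham. Its difference was 0.16, or 0.05 without sham replicate 1, and with limma over all probes its adjusted p was 0.73. The dimmer probe of the same genes also gave 0.16, with sham replicate 2 equal to antagonist replicate 3.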

How the results depend on the processing

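Under no level filter, the 60th percentile filter, a second quantile normalization, median centring, the mean of all probes, the probe of second-highest mean, robust eBayes, eBayes with a trend, array weights and the replicate block, limma called 0 genes, as in the reported comparison. Unadjusted p-values under 0.05 numbered 318 to 860 in these. Leaving out 1 array gave 0 to 2058 calls, with 1319 without sham replicate 1 and 2058 without sham replicate 2. Leave-one-out medians ran from -0.024 to 0.033 for the complex I subunits, from -0.030 to 0.0053 for the Ndufaf genes and from -0.033 to 0.14 for complexes II to V. The probe of second-highest mean moved the subunit median to 0.063, which also changes the genes with 2 probes, Ndufa8, Ndufa11 and Ndufa12.

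Single genes were followed through the settings for the 25 genes named by rule. Of these, 3 turned direction under a setting that keeps all arrays: Ndufa11 was at 0.063 with its second probe, Ndufb11 at 0.011 with the replicate block and Ndufb9 at 0.0099 after a second quantile normalization. Outside the 25, Ndufa8 was at 0.074 with its second probe. Leave-one-out ranges of the 25 crossed 0 for Ndufa6 (-0.051 to 0.24), Ndufaf3 (-0.0016 to 0.18), Ndufb11 (-0.098 to 0.011), Ndufb6 (-0.094 to 0.42), Ndufb9 (-0.15 to 0.064), Ndufs7 (-0.075 to 0.047), Ndufs8 (-0.24 to 0.021), Ndufv1 (-0.10 to 0.27) and Ndufv2 (-0.024 to 0.084). Outside the 25, Ndufa2, Ndufa9, Ndufa10, Ndufa13, Ndufb3, Ndufb8 and Ndufaf1 also differed in sign between the sham arrays. The cause was not tested. Replicate numbers are shared by the groups, and deviations of same-numbered arrays correlated at -0.11 and 0.03 across genes. Deviations of the sham arrays from their own mean mirror each other. These correlations therefore cannot show whether same-numbered arrays share more than a number. With the replicate number as a block the subunit median was 0.01 and 0 genes were called.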

Other observations

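The other probes that name an Nduf gene with a further symbol gave these values. The probe of Ndufs5 and Ndufs5-ps read 8.52, 8.52 and 8.45 with the antagonist, against 8.33 and 8.93 in sham, and the sham hearts lay on either side of the antagonist hearts. The probe of Ndufb2 and Adck2 read 7.01, 7.19 and 7.03 with the antagonist, against 7.06 and 6.92 in sham, and overlapped. The probe of Ndufb4, Ndufb4b and Ndufb4c read 7.77 on every array, and that of Ndufs1 and Ino80dos read 4.16 on every array. The second probe of Ndufa12 read 6.998, 6.780 and 6.692 with the antagonist, against 6.026 and 7.193 in sham, while the brighter probe of Ndufa12 lay between 9.76 and 9.78 on all 5 arrays.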
